A study of Mus musculus with 17 samples.

Results

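The genes described here are 8 of the 54838 genes counted in haematopoietic stem cells (HSCs) of mice: the cytokine signalling inhibitors Socs1, Socs2, Socs3 and Cish, the transcription factors Stat3, Stat5a and Stat5b, and Ptgs2, which encodes the inducible cyclooxygenase. They form a list of names, drawn up with earlier results of these data known. All 8 were found in the count files and all 8 passed the filter on low counts, so each was tested in every comparison.

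RNA was sequenced in bulk from CD150+ CD48- cells sorted among lineage-negative, Sca1+ and cKit+ marrow cells of C57BL/6 Jrj mice, after crushing of the bones and enrichment for c-kit. The 17 libraries formed 4 groups. Young control mice (n = 4 libraries) and young mice given CCCP (n = 5) were 8 to 12 weeks old, and old control mice (n = 3) and old mice given Mito-Q (n = 5) were over 18 months old. Treated young mice received a single dose of the mitochondrial uncoupler CCCP (0.3 mg/kg, 1 intraperitoneal injection), and treated old mice received Mito-Q, a mitochondria-targeted antioxidant, in 5 daily injections of 2 mg/kg. All mice were of the same strain, and the labels name no allele or transgene. Vehicle treatment of the controls, the interval between the last injection and the sort, and the number of mice behind a library are not given in the labels, so p-values measure the spread between libraries.

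Cytokines bind receptors that carry JAK kinases. The kinases phosphorylate STAT proteins, which dimerise, enter the nucleus and bind DNA. SOCS proteins and CIS, the product of Cish, are induced by this signal and then restrain it: SOCS1 and SOCS3 act on the kinases and receptors, whereas CIS and SOCS2 are best known as products of STAT5 activity. In HSCs, STAT5 is known as a mediator of cytokine signals that maintain the cells. Ptgs2 encodes the enzyme that starts prostaglandin synthesis on demand, while its relative Ptgs1 is the constitutive form. Socs3 and Ptgs2 are both known as genes that respond quickly to stimuli.

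Socs3 lies on chromosome 11 on the minus strand (chr11:117966079-117970047, GRCm38, GENCODE M21), and Ptgs2 on chromosome 1 on the plus strand (chr1:150100031-150108227). Their promoters are shown because these were the only members of the 8 whose changes passed the test, and they moved in the same direction each time. The sequences are from RefSeq on GRCm38.p6, printed 5′ to 3′ on the strand of the gene. Capitals mark matches to the STAT motif TTCNNNGAA (the GAS element) or to the GC box GGGCGG. For Socs3 the stretch is chr11:117969452-117969616, a part of the upstream window that lies outside annotated Socs3 exons, and for Ptgs2 it is chr1:150099781-150100030, which overlaps exons of the noncoding gene Ptgs2os.
Socs3: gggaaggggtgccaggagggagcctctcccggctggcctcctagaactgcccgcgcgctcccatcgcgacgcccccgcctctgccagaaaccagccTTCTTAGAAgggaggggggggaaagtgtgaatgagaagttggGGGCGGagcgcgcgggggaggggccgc
Ptgs2: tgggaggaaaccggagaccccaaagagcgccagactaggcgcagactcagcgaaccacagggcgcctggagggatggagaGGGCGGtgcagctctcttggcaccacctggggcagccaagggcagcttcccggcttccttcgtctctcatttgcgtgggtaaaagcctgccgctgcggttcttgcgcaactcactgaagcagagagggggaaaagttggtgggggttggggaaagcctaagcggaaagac

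The Socs3 window held 1 match to the STAT motif, at positions -154 to -146 from the RefSeq start, and the Ptgs2 window held none. Cish held 2 STAT matches at its RefSeq start, at positions 1 to 9 and 12 to 20. All 250 bases before that start lie in annotated Cish exons, so they are not upstream of the whole annotated gene. The stretch is chr9:107296659-107296678, plus strand, with both matches in capitals here.
Cish: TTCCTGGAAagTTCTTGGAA

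Of all 32851 RefSeq promoter windows of the same length, searched on both strands from 250 bases before the start to 50 after it, 8.3% held the STAT motif and 35.7% the GC box. RefSeq windows were found for 7 of the 8 genes, as 9 windows. Windows of Stat5a held 175 and 139 upstream bases in exons of the gene itself, and 1 window of Stat5b held 143. Socs3 and Cish were the members with a STAT match, and Socs1, Stat3, Stat5a, Stat5b and Ptgs2 had none in their windows. None of the 9 windows held the cyclic AMP response element TGACGTCA (1.79% of all windows), the AP-1 motif TGANTCA (7.81%) or the serum response CArG box (1.63%), and 1 window of Stat5a held the NF-kB motif (4.51%). Searches added after the files were seen found the shorter pattern CGTCA (20.8% of all windows) in Ptgs2 at positions 14 to 18, in Cish and in 1 window of Stat5a, and the TATA pattern TATAAA (13.6%) in none of the 9 windows. These are matches of letters and not measured sites.

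Each library had between 5649611 and 8120443 reads in genes. Levels are given in CPM, counts scaled to library size with TMM scaling factors, and a gene is said to have risen or fallen where its Benjamini-Hochberg adjusted p in edgeR's quasi-likelihood test was under 0.05 over the 24523 genes tested. The share of reads assigned to no gene ran from 37.7% to 76.2%. It was highest in young CCCP 3 and in old control 1 (68.8%), while the other libraries were at 60.6% or below. Median rank correlation with the other libraries over 11816 genes was 0.643 for young CCCP 3 and 0.705 for young control 3, against 0.779 to 0.885 for the rest. Counts and calls without these 3 libraries are given beside those they change. That fit keeps only old control 2 and old control 3 of the old controls. By rank correlation old control 1, at 0.822, did not stand apart, since old control 2 was at 0.804 and old control 3 at 0.779. Kit, a gene of the sorted HSC, was present in every group at means of 553 to 1300 CPM.

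**Figure D1:**
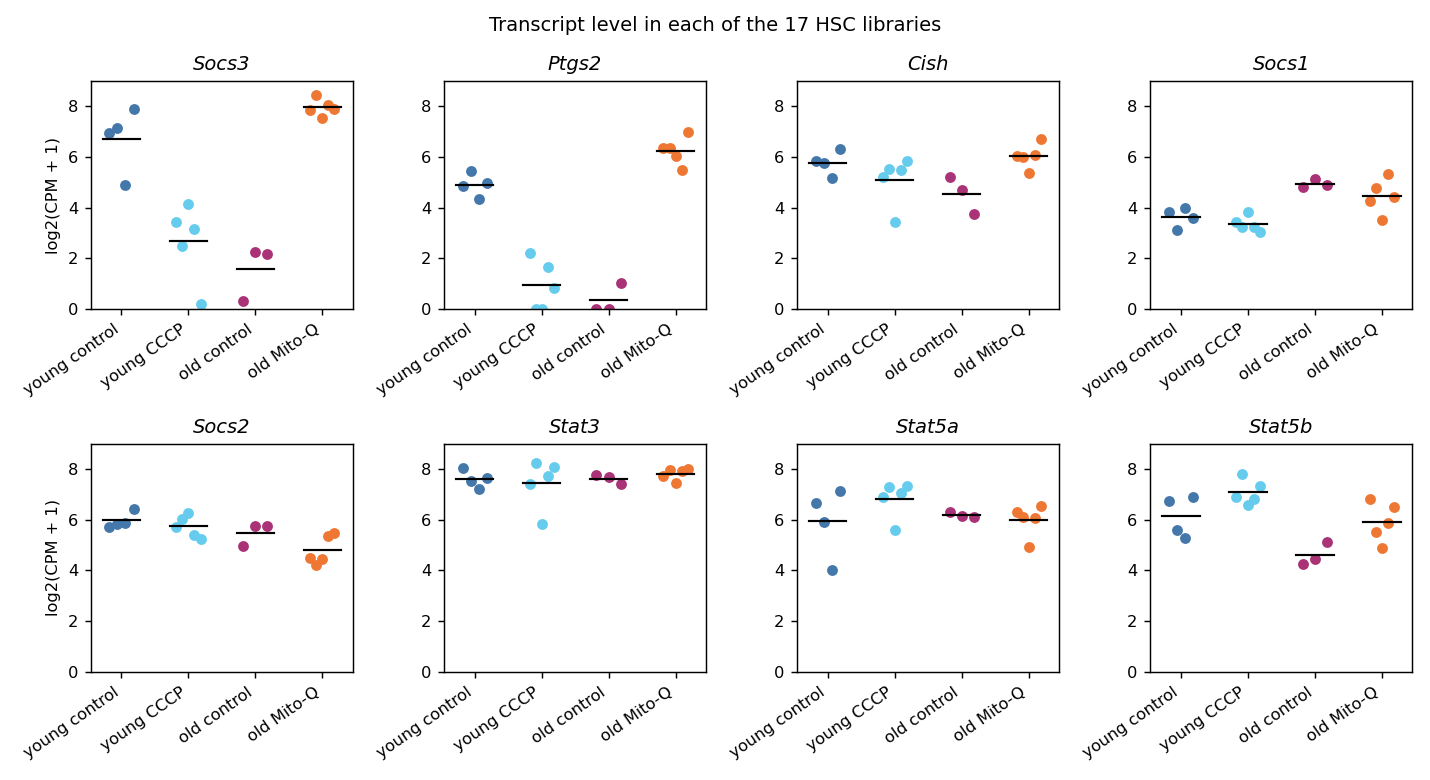
Levels of the 8 genes in each of the 17 libraries, as log2(CPM + 1) on the vertical axis, by group on the horizontal axis; each point is a library and each bar the group mean of the plotted values. Socs3 and Ptgs2 are high in young control and old Mito-Q libraries and low in every young CCCP and old control library, whereas Stat3 is level across the groups.

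Socs3, an inhibitor that binds the receptor subunit gp130 and JAK kinases, stood at 122, 139, 28.5 and 236 CPM in the 4 young controls and at 0.238, 3.81 and 3.54 CPM in the 3 old controls. Every old control was below every young control. Its level fell by 5.75 on the log2 scale (SE 0.91, edgeR adjusted p = 0.000582), from 131 ± 85.1 CPM (SD, n = 4) to 2.53 ± 1.99 (n = 3). In bulk samples such as these, fewer cells that express a gene and less RNA of it per cell cannot be told apart. Old mice given Mito-Q had 231, 344, 183, 265 and 239 CPM of Socs3, all above every old control. This was a rise of 6.69 on the log2 scale over old controls (SE 0.94, edgeR adjusted p = 0.000122), to 253 ± 59.1 CPM (n = 5). Young mice given CCCP had 9.83, 4.6, 16.7, 7.86 and 0.16 CPM, each below the lowest young control. Socs3 fell by 4.07 on the log2 scale with CCCP (SE 0.66, edgeR adjusted p = 0.000644), to 7.83 ± 6.17 CPM (n = 5).

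In old Mito-Q against young control libraries the 2 groups overlapped for Socs3. The fitted difference was 0.94 on the log2 scale (SE 0.61, edgeR adjusted p = 0.808). By mean level the order was old Mito-Q, young control, young CCCP and old control. Neither the upper pair nor the lower pair was separated library by library. The highest young control lay above 2 of the Mito-Q libraries. The lowest CCCP library lay below all old controls, on 1 Socs3 read. The lowest old control held 2 reads, so the order of these libraries is not resolved. The other CCCP libraries, at 4.6 to 16.7 CPM, lay above every old control.

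Ptgs2 followed the same order. It stood at 28.3, 42.2, 19.4 and 30.8 CPM in young controls, and in old controls at 0, 0 and 1.06 CPM. The old control value rested on 6 reads, all from old control 3, so the depth sets the size of this difference. Ptgs2 fell by 6.44 on the log2 scale (SE 1.15, edgeR adjusted p = 0.00193). With old control 3 left out no read remained, and 3 reads over the other 2 old controls would be 0.22 CPM, below the level in every young control and old Mito-Q library. Such a limit covers counting error only, because reads copied by PCR are not independent molecules.

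Old Mito-Q libraries held 81.1, 80.7, 64.1, 43.9 and 126 CPM of Ptgs2. All 5 were above every old control and also above every young control. The rise over old controls was 7.83 on the log2 scale (SE 1.19, edgeR adjusted p = 0.000344), to 79.1 ± 30.1 CPM (n = 5). Over young controls, at 30.1 ± 9.39 CPM (n = 4), the difference was 1.39 (SE 0.71) and missed the threshold (edgeR adjusted p = 0.662). Young CCCP libraries held 3.67, 0, 0, 2.14 and 0.8 CPM, all below the young controls. Ptgs2 fell by 4.42 on the log2 scale with CCCP (SE 0.79, edgeR adjusted p = 0.00202). When only the 2 young groups entered the fit, the difference was -4.43 and the adjusted p rose to 0.113.

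Socs3 and Ptgs2 were thus the 2 of 8 members called in old against young controls, both lower. Of all tested genes 1.69% were called there, 1.17% lower and 0.522% higher. They were the 2 of 8 called in old Mito-Q against old controls, both higher, where 0.542% of all genes were called, 0.526% higher and 0.0163% lower. With CCCP they were again the 2 of 8 called, both lower, where 0.718% of all genes were called, 0.652% lower and 0.0652% higher. No member was called in old Mito-Q against young controls by edgeR, nor by DESeq2 or limma-voom, and 1 member, Socs2, had an unadjusted p under 0.05 in edgeR. Of all genes 0.143% were called in that comparison, 0.130% higher and 0.0122% lower, and 1935 of the 24523 tested had an unadjusted p under 0.05 in edgeR.

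Other tools and the fit without the 3 libraries that stand apart called other shares of all genes. DESeq2 ran without the filter on low counts, so its shares are of 47062 genes, against 24523 for limma-voom and 25734 without the 3 libraries. Shares over unlike numbers of genes are not directly comparable. In old against young controls DESeq2 called 4 of 8 members and 3.02% of all genes, limma-voom 2 of 8 and 1.22%, and edgeR without the 3 libraries 4 of 8 (Cish and Stat5b in addition) and 9.79%, with 1413 genes higher and 1107 lower. In old Mito-Q against old controls the same 3 fits called 1.18%, 0.457% and 4.41% of all genes. The last, with 3 of 8 members called, had 490 genes higher and 645 lower, where the fit of all libraries had 129 and 4, so the balance of directions over all genes turned. With CCCP the shares were 1.42%, 0.832% and 0.925%, and in old Mito-Q against young controls 0.484%, 0.220% and 0.459%. Comparisons that share a control group are not independent of each other: old controls enter the comparison with young controls and that with old Mito-Q, and young controls enter every comparison except old Mito-Q against old controls.

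**Figure D2:**
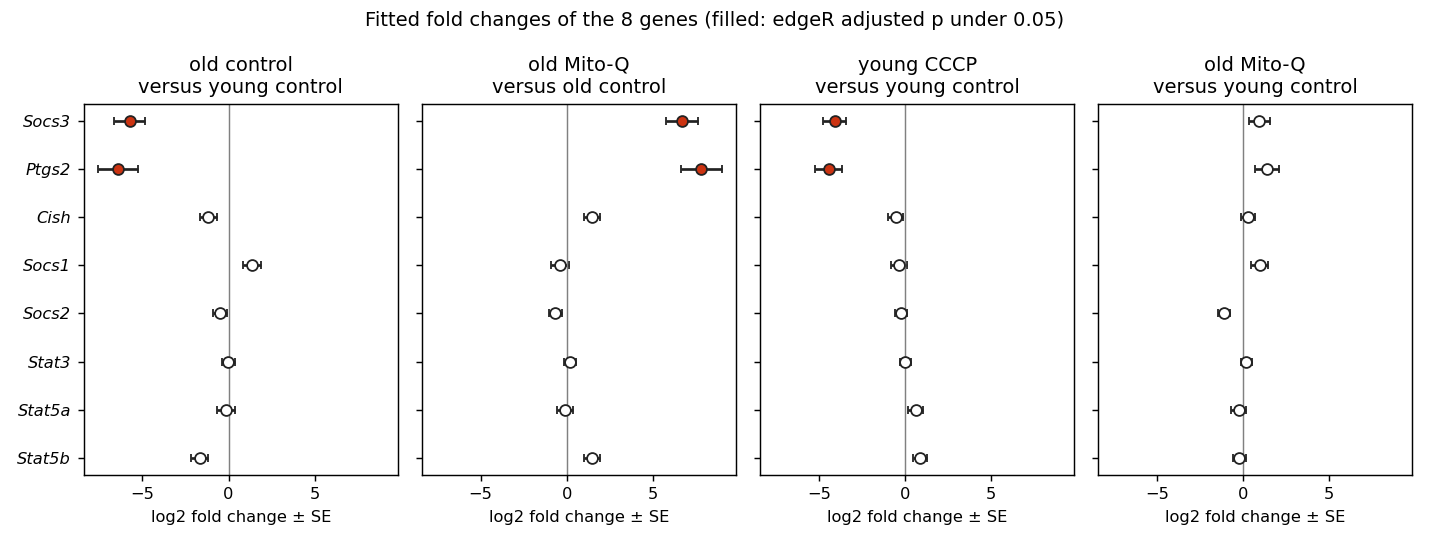
Fitted log2 fold change of each of the 8 genes (horizontal axis) with its standard error (bars) in the 4 comparisons, filled where the edgeR adjusted p was under 0.05. Socs3 and Ptgs2 lie at -5.75 and -6.44 in old against young controls and at 6.69 and 7.83 in old Mito-Q against old controls, while the other 6 genes lie within 2 of zero.

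Cish, the STAT5-induced inhibitor CIS, had differences of the same sign as Socs3 in each comparison, but smaller ones. It stood at 55.9, 53.1, 35.2 and 78.8 CPM in young controls and at 36.5, 24.8 and 12.6 CPM in old controls, and these groups overlapped by 1 library. The difference was -1.18 on the log2 scale (SE 0.49, edgeR adjusted p = 0.27). Old Mito-Q libraries had 64.2, 62.6, 40.4, 66.4 and 105 CPM, all above the old controls. That difference was 1.46 (SE 0.48, edgeR adjusted p = 0.28). Young CCCP libraries had 36.4, 44.9, 9.92, 43.3 and 56.5 CPM and overlapped with young controls (-0.54, SE 0.41, edgeR adjusted p = 0.688). Without the 3 libraries that stand apart Cish passed the threshold in 2 comparisons, at -1.72 in old against young controls (edgeR adjusted p = 0.00856) and at 1.83 in old Mito-Q against old controls (edgeR adjusted p = 0.0102). That fit leaves out old control 1 (36.5 CPM) and young control 3 (35.2 CPM), the libraries that made the control groups overlap. Exons of Cish overlap those of Gm17040 and Gm17041 on the opposite strand over 261 and 479 bases, and whether counting used the strand is not given in the sources used here. Those genes had at most 46 and 0 reads.

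Socs1, which inhibits JAK kinases directly and is known for restraining interferon signals, was the only SOCS member that stood higher in old than in young controls. Its levels were 13.1, 7.78, 14.8 and 11.1 CPM in young controls and 27, 33.9 and 29.2 CPM in old controls. The groups did not overlap, but the difference of 1.36 on the log2 scale (SE 0.53) did not pass the test (edgeR adjusted p = 0.231). DESeq2 gave 1.44 with an adjusted p of 0.0171. Old Mito-Q libraries had 18.4, 26.7, 10.3, 39.1 and 20.3 CPM and spanned the old controls (-0.39, SE 0.5, edgeR adjusted p = 0.888). Young CCCP libraries, between 7.2 and 13.2 CPM, overlapped with young controls (-0.32, SE 0.47, edgeR adjusted p = 0.865).

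Socs2, another product of STAT5 activity and a restraint on growth hormone signals, had its lowest levels in old Mito-Q libraries, at 21.3, 17.5, 21.1, 40 and 43.8 CPM. Young controls had 51.9, 56.3, 57.9 and 85.6 CPM, all above them. The difference of -1.13 on the log2 scale (SE 0.35) had an unadjusted p of 0.00381 in edgeR and an edgeR adjusted p of 0.468. Old controls stood between, at 30, 53.3 and 52.9 CPM, and overlapped with both. CCCP libraries, from 37.1 to 75.8 CPM, overlapped with young controls (-0.22, SE 0.35, edgeR adjusted p = 0.883). The 4 inhibitors therefore did not share an order of groups: Socs3 and Cish had their highest means in old Mito-Q libraries, Socs1 in old controls and Socs2 in young controls.

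The 3 STAT genes lie next to each other on chromosome 11: Stat5b at chr11:100780731-100850724 on the minus strand, Stat5a at chr11:100859351-100885169 on the plus strand and Stat3 at chr11:100885098-100939540 on the minus strand. Exons of Stat5a and Stat3 share 72 bases on opposite strands, where reads cannot be assigned without strand.

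Stat3, the factor downstream of gp130 receptors, did not differ detectably between groups. It had 259, 185, 149 and 199 CPM in young controls and 216, 204 and 171 CPM in old controls. The difference was -0.01 on the log2 scale (SE 0.37, edgeR adjusted p = 0.999), and its sign turned under other scalings. Old Mito-Q libraries had 174 to 255 CPM with a median of 244, and young CCCP libraries 56.6 to 301 CPM with a median of 211, the lowest being CCCP 3. The fitted differences from their controls were 0.21 (SE 0.36) and 0.02 (SE 0.33), and the second also turned sign under some alternatives.

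Stat5b, with Stat5a a factor that carries cytokine signals in HSCs, was lower in every old control than in any young control. It stood at 106, 47.1, 38.3 and 118 CPM in young controls and at 18, 20.8 and 33.8 CPM in old controls. The difference of -1.68 on the log2 scale (SE 0.48) had an unadjusted p of 0.00166 and missed the threshold after adjustment (edgeR adjusted p = 0.0752). It passed with no filter on low counts (-1.70, edgeR adjusted p = 0.0249), with DESeq2 (-1.59, adjusted p = 0.0181), without the 3 libraries that stand apart (-1.70, edgeR adjusted p = 0.0279) and without young control 3 alone (-1.90, edgeR adjusted p = 0.0388). Old Mito-Q libraries had 113, 44.2, 28.8, 57.9 and 89.9 CPM, of which 1 lay within the old control range (1.47, SE 0.46, edgeR adjusted p = 0.238). Young CCCP libraries had 118, 224, 94.1, 110 and 159 CPM and overlapped with young controls (0.86, SE 0.4, edgeR adjusted p = 0.425).

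Stat5a did not show that pattern. It had 100, 59.6, 15.2 and 140 CPM in young controls and 77.3, 70.1 and 67.7 CPM in old controls, which lay inside the young range. The difference was -0.14 on the log2 scale (SE 0.5, edgeR adjusted p = 0.945), with a changed sign under some alternatives. Old Mito-Q libraries had 29.3 to 91 CPM with a median of 68.1, and young CCCP libraries 47.6 to 160 CPM with a median of 132. Neither differed from its control group past the threshold (-0.11, SE 0.47, and 0.63, SE 0.44).

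Because Stat5a and Stat5b are close copies, their balance was compared within each library, a measure added after their values were seen. Stat5a made up 48.5%, 55.9%, 28.5% and 54.4% of the reads of both genes in young controls, and 81.1%, 77.1% and 66.7% in old controls. It made up 40.7%, 60.6%, 50.4%, 53% and 50.3% in old Mito-Q libraries and between 33.6% and 54.4% in CCCP libraries. The 3 old controls thus lay above the other 14 libraries. The mean share was 28.1 percentage points higher in old than in young controls (75.0 ± 7.43 against 46.8 ± 12.6, n = 3 and 4, two-sided exact permutation p = 0.0571, the smallest this design allows). It was 24.0 points lower in old Mito-Q than in old control libraries (51.0 ± 7.13, n = 5, exact permutation p = 0.0357, also the smallest possible). Over the 4 comparisons made, both had a Benjamini-Hochberg adjusted exact p of 0.114. Leaving out each library in turn gave 22.0 to 32.3 points for the first difference and -28.1 to -20.9 for the second. Of the 50-base stretches in their transcripts, 8.21% of those of Stat5a and 11% of those of Stat5b occur in the other gene. Reads from there may be split between the genes or left out of both counts.

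**Figure D3:**
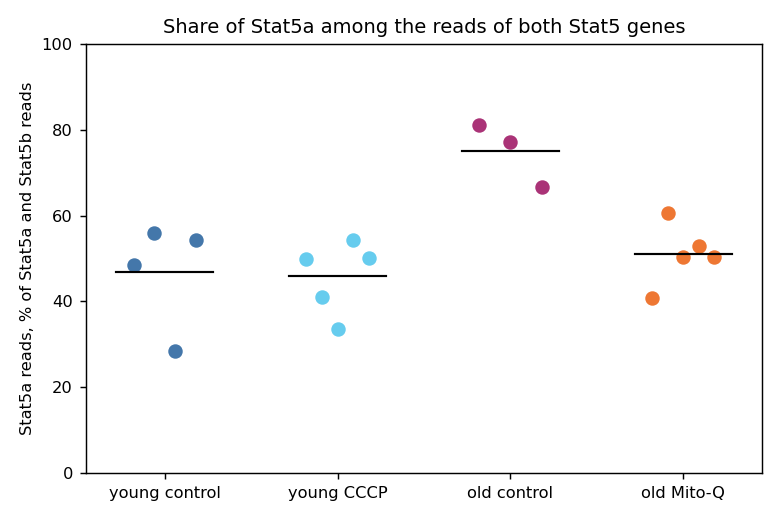
Reads of Stat5a as a percentage of the reads of Stat5a and Stat5b together (vertical axis) in each library, by group; points are libraries and bars are group means. Old controls lie between 66.7% and 81.1%, and the other 14 libraries at 60.6% or below.

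Levels of different genes were compared per kilobase of exon, with the union of annotated exons as length. In young controls the order of mean CPM per kilobase was Socs3 45.5, Stat3 20.8, Stat5b 14, Stat5a 11.1, Cish 8.68, Socs2 6.6, Ptgs2 6.58 and Socs1 4.03. Neighbours in that order overlapped: Socs3 had an SD of 29.4 and Stat3 one of 4.81. In old controls Stat3 came first at 20.7, followed by Socs1 at 10.3 and Stat5a at 10.1, while Socs3 (0.874) and Ptgs2 (0.0772) came last. In old Mito-Q libraries Socs3 was again first, at 87.4, ahead of Stat3 at 23.8 and Ptgs2 at 17.3. Socs2 depended most on the length used: with its longest transcript its young control level was 14.8 instead of 6.6. The orders also changed with that length. In old controls Stat5a (18.1) and Socs2 (10.7) then came before Socs1 (10.3), with Stat3 still first at 32.6. In young controls Stat5a (19.9) then came before Stat5b (14.8).

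The genes whose levels were most like those of Socs3 and Ptgs2 were sought over the 17 libraries by the root mean square difference of centred log2 CPM. For Socs3 they were Zfp36, which encodes an RNA-binding protein that destabilises cytokine mRNAs, at 1.3, the cell cycle inhibitor Cdkn1a at 1.32 and Rgcc at 1.33. For Ptgs2 they were the transcription factor Klf2 at 1.1, the inhibitor of differentiation Id1 at 1.26 and the antiproliferative gene Btg2 at 1.33. Klf2 had mean levels of 291 ± 131 CPM in young controls, 4.68 ± 2.6 with CCCP, 4.91 ± 2.49 in old controls and 451 ± 107 with Mito-Q. Zfp36 had 701 ± 296, 34.6 ± 13.3, 54.7 ± 35.9 and 1550 ± 432 CPM in the same groups. This likeness is a description over libraries that share groups and depth.

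Around the members, no gene of the core pathway was called by edgeR. None of the 4 other SOCS genes (Socs4, Socs5, Socs6, Socs7), the 4 other STAT genes tested, the 4 JAK kinases (Jak1, Jak2, Jak3, Tyk2), the 27 cytokine receptors or the 8 of 15 cytokine ligand genes that could be tested was called in any of the 4 comparisons. Median log2 differences of the 5 lists in old against young controls were -0.56, 0.03, -0.57, -0.07 and -0.45, beside 0.16 over all tested genes. In that comparison 1 of the other SOCS genes, 0 of the other STAT genes, 2 JAK genes, 2 receptors and 1 ligand had an unadjusted p under 0.05, and 0 to 2 genes of each list did in the other 3 comparisons. Over all 24523 genes tested, edgeR gave such a p for 3487 in old against young controls and 2464 in old Mito-Q against old controls. It did so for 2735 with CCCP and for 1935 in old Mito-Q against young controls. DESeq2 called 1 gene of the 5 lists in old against young controls, Jak1, and 1 in old Mito-Q against young controls, the oncostatin M receptor gene Osmr, and limma-voom called none. Of all genes DESeq2 called 3.02% and 0.484% in these comparisons. Without the 3 libraries that stand apart edgeR called Jak2 and 3 of 27 receptor genes (Il21r, Csf2rb, Il4ra) in old against young controls, where it called 9.79% of all genes. That fit also called 1 receptor gene (Il21r) in old Mito-Q against old controls, beside 4.41% of all genes. In old Mito-Q against young controls it called Osmr, beside 0.459%. Jak2, a kinase of cytokine receptors, had 108 ± 24.0 CPM in young and 33.8 ± 14.3 in old controls without overlap (-1.68, SE 0.55, edgeR adjusted p = 0.135), and 80.1 ± 31.1 CPM with Mito-Q. It passed with no filter (edgeR adjusted p = 0.0307) and without the 3 libraries that stand apart (edgeR adjusted p = 0.0363). Jak1 had 534 ± 37.2 and 310 ± 75.5 CPM in young and old controls, also without overlap (-0.78, SE 0.27, edgeR adjusted p = 0.168), and DESeq2 gave an adjusted p of 0.0143.

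Of 14 genes in a list labelled other inhibitors of JAK-STAT signalling, 1 was called, in old against young controls, beside 1.69% of all genes. The list includes phosphatases, PIAS and adaptor proteins, and was not sorted by whether each only inhibits the pathway. This was Ptprc, the phosphatase CD45, which fell from 452 ± 106 to 199 ± 78.7 CPM (-1.18 on the log2 scale, SE 0.3, edgeR adjusted p = 0.0396). The call was lost in 11 of its 17 alternatives, including each of the other scalings, with adjusted p-values up to 0.295. The median of the 14 genes was -0.56. Without the 3 libraries that stand apart 4 of the 14 were called there, Ptprc, Sh2b3, Ptpn11 and Pias2, of which 3 were lower and 1 higher, beside 9.79% of all genes. DESeq2 called Ptprc and Pias2, both lower, beside 3.02% of all genes. In old Mito-Q against old controls Ptprc was 0.82 higher on the log2 scale (SE 0.29) and not called, but without the 3 libraries the difference was 1.16 (edgeR adjusted p = 0.00507).

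Genes known as targets of STAT3 and STAT5 divided. Of 17 genes in the list 4 were called in each of 3 comparisons: Mcl1, Id1, Cdkn1a and Spry1 fell in old against young controls, rose in old Mito-Q against old controls and fell with CCCP. In the same directions edgeR called 1.17%, 0.526% and 0.652% of all tested genes. The medians of all 17 in these comparisons were -0.21, 0.3 and -0.27, beside 0.16, -0.12 and 0.21 over all tested genes. Without the 3 libraries that stand apart 7 of the 17 were called in old against young controls, 5 of them lower and 2 higher, beside 9.79% of all genes, and 5 in each of the other 2 comparisons, beside 4.41% with Mito-Q and 0.925% with CCCP. Mcl1, a survival gene of the BCL2 family, had 793 ± 112 CPM in young controls, 129 ± 44 with CCCP, 118 ± 12.8 in old controls and 1030 ± 175 with Mito-Q. Its fall in old controls was 2.75 on the log2 scale (SE 0.33) and its rise with Mito-Q 3.13 (SE 0.33). The call of Spry1, a feedback inhibitor of growth factor signals, was lost in some alternatives, and with Mito-Q its adjusted p ranged up to 0.105. The kinase Pim1, by contrast, had 55.1 ± 15.2 CPM in young and 114 ± 32.7 in old controls (1.05, SE 0.42, not called), and the survival gene Bcl2l1 38.4 ± 15.8 and 33.4 ± 5.76 CPM. In old Mito-Q against young controls edgeR called 0 of the 17. There 4 of the 17 had an unadjusted p under 0.05, beside 1935 of all 24523 genes tested. DESeq2 called 2 of the 17 (Gadd45g, Id1), limma-voom 1 (Id1) and edgeR without the 3 libraries 1 (Gadd45g), all higher. These fits called 0.484%, 0.220% and 0.459% of all genes in that comparison, in either direction. Pim1 and Bcl2l1 were picked for mention after their values were seen, as were the prostanoid genes below.

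Ptgs2 was the only gene of prostanoid synthesis that edgeR called with all libraries in the fit. The list of 27 genes for prostanoid synthesis, receptors and removal also holds the leukotriene genes Alox5, Alox5ap and Ltc4s. Of the 27 genes, 23 were tested and none was called by edgeR in any comparison. At an unadjusted p under 0.05 in edgeR were 6, 3, 1 and 1 of them, beside 3487, 2464, 2735 and 1935 of all 24523 genes tested. The order is old against young controls, Mito-Q against old controls, CCCP against young controls and Mito-Q against young controls. Of the list, DESeq2 called 2 in the first comparison (the leukotriene gene Ltc4s lower, Hpgds higher) and 1 with CCCP (Ptges3, lower), and limma-voom none. Of all genes DESeq2 called 3.02% in the first comparison and 1.42% with CCCP. Without the 3 libraries that stand apart edgeR called 5 in old against young controls, 4 of them higher, Cbr1 and Hpgds leading, beside 9.79% of all genes, and 1 with Mito-Q against old controls, Cbr1, which was lower. Ptgs1, the constitutive cyclooxygenase, stood at 130 ± 41 CPM in young controls, 127 ± 35.7 with CCCP, 127 ± 19.4 in old controls and 138 ± 30.7 with Mito-Q. The prostaglandin E2 receptor gene Ptger4 had 51.7 ± 23.8 and 37.8 ± 4.1 CPM in young and old controls, and the synthase gene Ptges 10.6 ± 8.66 and 18.4 ± 6.15. Hpgds, the haematopoietic prostaglandin D synthase gene, averaged 10.9 CPM in young and 56 CPM in old controls (2.35, edgeR adjusted p = 0.124). The list median was 0.01 in old against young controls, 0.29 with Mito-Q and 0.02 with CCCP.

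**Figure D4:**
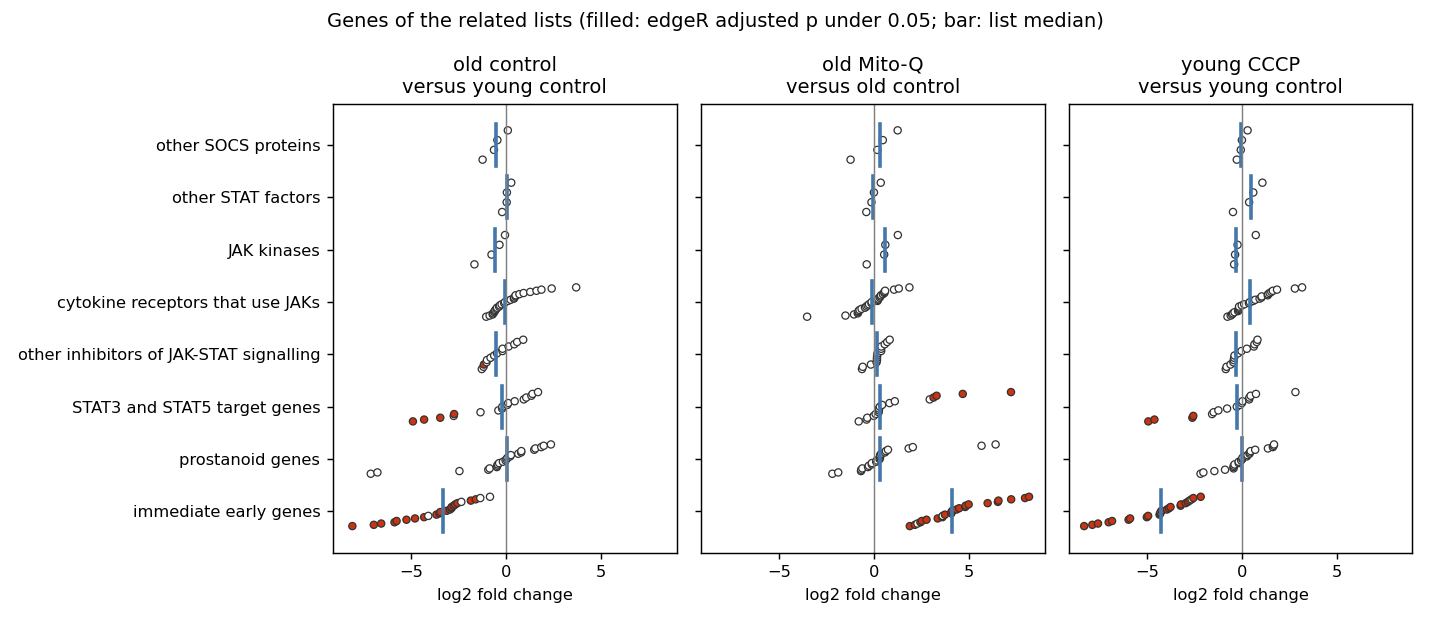
Log2 fold change (horizontal axis) of every tested gene of 8 related lists in 3 comparisons; each point is a gene, filled where the edgeR adjusted p was under 0.05, and each vertical bar is the list's median. Called genes lie in the target list, in the immediate early list and, for old against young controls, at Ptprc in the list labelled other inhibitors of JAK-STAT signalling.

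Immediate early genes, which switch on within minutes of a stimulus, moved with Socs3 and Ptgs2. Of 24 genes in this list, which was chosen with earlier results of these data known, 20 fell in old against young controls, 21 rose in old Mito-Q against old controls and 22 fell with CCCP. Of all genes 1.17%, 0.526% and 0.652% moved the same way in these comparisons. The medians of the list were -3.31, 4.09 and -4.26 on the log2 scale, beside 0.16, -0.12 and 0.21 over all tested genes. In old Mito-Q against young controls none was called by edgeR and the median was 0.65. There 11 of the 24 had an unadjusted p under 0.05, beside 1935 of all 24523 genes tested. DESeq2 called 3 of the 24, limma-voom 5 and edgeR without the 3 libraries 3 (Btg2, Ier3, Ier2), all higher. Of all genes these fits called 0.484%, 0.220% and 0.459% there, in either direction. Fos averaged 1950 CPM in young controls, 15 with CCCP, 51 in old controls and 4770 with Mito-Q. Nr4a1 averaged 2610, 13.7, 9.49 and 2340 CPM. Without the 3 libraries that stand apart 22 fell in old against young controls, 23 rose in old Mito-Q against old controls and 24 fell with CCCP. That fit called 9.79%, 4.41% and 0.925% of all genes there, in either direction. The part of these genes in the changes of Socs3 and Ptgs2 was not tested.

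Marker genes of other marrow cells were summed in each library to set beside these results. The 12 neutrophil and granule genes, led by S100a8, Ngp and S100a9, summed to 440 to 2230 CPM in young controls, 767 to 16500 with CCCP, 1100 to 2400 in old controls and 987 to 14300 with Mito-Q. Each treated range overlapped with that of its control group and reached far above any control. The 12 monocyte genes, led by Lyz2, Ly6c2 and Cd68, summed to 525 to 1200, 549 to 2280, 733 to 1320 and 793 to 1890 CPM in the same order of groups. The 9 erythroid genes, led by Hba-a1, Hbb-bs and Hbb-bt, spanned 69.4 to 248, 145 to 1410, 101 to 343 and 70.5 to 914 CPM. The sums of these 3 sets overlapped between the young and the old controls. Single genes within them need not: Prtn3, a granule protease gene, rose from 216 ± 13.4 CPM in young to 1010 ± 492 in old controls (2.23, SE 0.33, edgeR adjusted p = 0.00017), and Elane, another, was above all young controls in each old control (5.10, SE 1.36, not called) and rose with CCCP (7.50, edgeR adjusted p = 0.0235).

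Other sets separated the control groups by age. The 8 T and NK cell genes, led by Nkg7, Klrb1c and Lck, summed to 107 to 133 CPM in young controls, 101 to 185 with CCCP, 149 to 280 in old controls and 128 to 211 with Mito-Q. The 8 megakaryocyte and platelet genes, led by Vwf, Itga2b and Pf4, summed to 222 to 434, 291 to 474, 503 to 538 and 449 to 582 CPM, with Gp1bb at 0 in young controls. Both sets were higher in each old control than in any young control. Of the T and NK cell genes edgeR called 1 of 6 tested (Klrb1c), and of the megakaryocyte and platelet genes 2 of 7 tested (Vwf, Gp9). All were higher, beside 0.522% of all genes called higher. Vwf was also called higher with CCCP, beside 0.0652% of all genes. The 8 mast cell and basophil genes, led by Prss34, Cpa3 and Hdc, summed to 8.7 to 19.8, 22.6 to 106, 10.6 to 32.9 and 14.4 to 259 CPM, and so were higher in each CCCP library than in any young control, with Prss34 at 0 in old controls and Gzmb at 0 with Mito-Q. The 8 B cell genes, led by Cd79b, Igll1 and Ebf1, ran from 46.3 to 104, 44.3 to 132, 80.2 to 196 and 57.9 to 108 CPM. The 10 endothelial and stromal genes, led by Pecam1, Emcn and Kdr, ran from 125 to 144, 112 to 254, 99.7 to 192 and 124 to 192 CPM. The 8 genes of the HSC list, which holds markers of the sort and other HSC genes, summed to 2390 to 3830, 1570 to 4270, 2740 to 2940 and 2990 to 3710 CPM, and its members had differences of both signs by age. Kit and Hlf had lower means in old than in young controls (553 against 1130 CPM and 277 against 476 CPM), while Ly6a (596 against 250), Slamf1 (96.7 against 51.9) and Procr (274 against 102) had higher ones, none of them called in that comparison. In old Mito-Q against young controls edgeR called Slamf1 higher, and Prtn3, Klrb1c and Vwf of the other sets, beside 0.130% of all genes called higher. Cd48, which the sort excludes, had 1.36 CPM in young and 0.238 in old controls, 7.47 with CCCP and 6.81 with Mito-Q. The part of these markers in the members' differences was not tested.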

How the data were processed

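RNA was sequenced from sorted HSCs in 17 libraries. The authors deposited raw read counts per Ensembl gene. The submitters' processing notes name Trim Galore, a read trimmer, STAR 2.7, an aligner, and the build GRCm38. How reads were counted, with which annotation and strand setting, and whether duplicates were removed is not given in the sources used here. The 5 footer entries of each file name no gene and were kept apart; they held 37.7% to 76.2% of reads. GENCODE M21 named 54809 of 54838 gene IDs and gave exon lengths.

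A single edgeR 4.0.16 fit (R 4.3.3) over the 17 libraries used TMM factors, filterByExpr (minimum count 10), robust quasi-likelihood dispersions and no covariate. The 24523 genes kept were tested two-sided with Benjamini-Hochberg adjustment at 0.05 in 4 comparisons. No libraries of a group were duplicates (lowest chi-square per degree of freedom 20.9). Same-numbered libraries of different groups were not treated as pairs. The procedure was tested on simulated data.

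Members and lists were chosen with earlier results of these data known, and the NF-kB and CArG patterns were written down after the files were seen. The text names all 8 members, the tested SOCS, STAT and JAK genes, called genes of the other lists (at most 6 per list), the 3 highest markers per cell type and the 3 genes most like each called member; other names were chosen after their values were seen. Alternatives were other scalings, no filter or a minimum count of 30, DESeq2 1.42.0, limma-voom (limma 3.58.1), only the 2 groups compared, a replicate block, and leaving out libraries. DESeq2 was run without the filter on low counts. Values of a few genes that these rules would name are not reported here.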

Additional observations from a re-analysis of the deposited data

How the results depend on the processing

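Of 584 alternative values for the 8 members, 553 kept their direction and side of the threshold, 7 passed it, 1 missed it and 23 changed sign; none of those 23 passed the threshold before or after. The members called in old against young controls were 2 in the main analysis, 4 with DESeq2 and 4 without the 3 libraries that stand apart, and those called with CCCP were 1 instead of 2 when only the 2 groups were fitted. The cause was not tested.

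Socs3 and Ptgs2 kept their calls in old against young controls and in old Mito-Q against old controls in every alternative run. With each library left out, Socs3 ranged from -6.2 to -5.11 and Ptgs2 from -10.73 to -5.7 in the first, and from 6.04 to 7.13 and 7.08 to 12.12 in the second. The extreme Ptgs2 values came without old control 3, where no read was left, and are no bounds.

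Sign changes among members were as follows. Stat3 in old against young controls (-0.01) gave 0.08 with DESeq2 factors or test, 0.12 with upper-quartile factors, 0.04 with library totals, 0.07 with a minimum count of 30, 0.01 with only the 2 groups, 0.06 with the replicate block and -0.13 to 0.15 with a library left out. Stat3 with CCCP (0.02) gave -0.05 with upper-quartile factors, -0.13 with limma-voom, -0.18 with the replicate block and -0.17 to 0.26 with a library left out. Stat5a in old against young controls (-0.14) gave 0.04 with upper-quartile factors, 0.13 with limma-voom, 0.43 with the replicate block and -0.49 to 0.30 with a library left out. With a library left out, Stat5a ranged from -0.25 to 0.06 in Mito-Q against old controls and from -0.59 to 0.18 in Mito-Q against young controls, and Stat5b from -0.50 to 0.06 in the latter.

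Among other named genes, 65 further sign changes occurred, none in a called value. In old against young controls, Jak3 gave 0.05 with DESeq2 factors or test, 0.06 with upper-quartile factors or library totals, 0.01 with a minimum count of 30 and -0.53 to 0.15 with a library left out. Socs7 gave -0.13 with limma-voom, -0.36 with the replicate block, -1.01 without the 3 libraries and -0.99 to 0.38 with 1 left out. Stat2 gave -0.0017 with no filter and -0.21 to 0.32 with 1 left out, and Stat6 -0.05 with library totals and -0.29 to 0.39. In Mito-Q against old controls, Socs5 gave -0.05 with the replicate block and -0.04 to 0.56 with 1 left out, Stat4 0.01 with no filter and -0.20 to 0.31, and Stat6 -0.01 to 0.67. With CCCP, Socs5 gave 0.01 with DESeq2 factors or test, 0.23 with library totals, 0.03 with no filter, 0.0044 with only the 2 groups, 0.63 without the 3 libraries and -0.12 to 0.33 with 1 left out. Socs6 gave 0.02 with DESeq2 factors or test, 0.07 with library totals and -0.19 to 0.04, and Socs7 0.02 without the 3 libraries and -0.60 to 0.01. In Mito-Q against young controls, Socs4 gave 0.01 with library totals or no filter, 0.19 with limma-voom, 0.03 with the replicate block, 0.22 without the 3 libraries and -0.25 to 0.22 with 1 left out. Socs5 gave 0.02 without the 3 libraries and -0.44 to 0.02, Fosb 0.06 and -0.52 to 0.06, Nr4a1 -0.44 to 0.06, Rgcc -0.09 to 0.14 and Spry1 -0.38 to 0.15.

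Numbers of called genes depended on the processing. In old against young controls 415 were called, but 1422 by DESeq2, 186 with only the 2 groups, 2520 without the 3 libraries, 125 without old control 2, 140 without old control 3, 243 and 255 without young control 1 or 4, and 684 without old control 1. In Mito-Q against old controls 133 became 556, 1135 without the 3 libraries, and 79 and 81 without old control 2 or 3. With CCCP 176 became 667, 324 with no filter and 111 with only the 2 groups. In Mito-Q against young controls 35 became 228, 90 with no filter, 54 with limma-voom, 118 without the 3 libraries, and 14, 21 and 20 without young control 1, 2 or 4. In old against young controls the split of 128 higher and 287 lower became 190 and 237 with upper-quartile factors (median of all genes 0.28 instead of 0.16), 404 and 280 without old control 1 (-0.35), and 1413 and 1107 without the 3 libraries (-0.4). In Mito-Q against old controls 129 and 4 became 96 and 46 without old control 1 and 490 and 645 without the 3 libraries.

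Same-numbered libraries of different groups did not all correlate in their deviations from the group means (-0.07 to 0.27 over the comparisons), so the numbers were not taken to pair them. In Mito-Q against old controls each of the 3 shared numbers correlated best with itself. Number 3 did so in all 4 comparisons (0.17, 0.17, 0.17 and 0.27), and numbers 1, 2 and 4 did not do so throughout. The library numbered 3 also had the lowest median rank correlation of its group. It was 0.705 in young controls, 0.643 with CCCP, 0.779 in old controls and 0.802 with Mito-Q. These are hints from the data and not from the design. A fit with the replicate block called 404, 130, 168 and 40 genes and left the members called at 2, 2, 2 and 0. Levels per kilobase moved by more than 1 SD in 14 of 32 cases with the longest transcript.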
